A study of Mus musculus with 18 samples.

Results

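The genes described here encode the proteins of the cytosolic ribosome. They were chosen by symbol from the platform annotation (Rpl or Rps followed by a number, Rplp0, Rplp1, Rplp2 and Rpsa), without Rps4l, the Rps6k kinases, the mitochondrial ribosomal proteins and pseudogenes. The annotation named 62 such genes, and 58 of them were detected, out of 16835 genes and unnamed probes tested in all. These 58 comprise 32 proteins of the large subunit, 23 of the small subunit and the 3 proteins of the P-stalk, which belongs to the large subunit. A gene counted as detected when its detection p was under 0.05 on at least 3 arrays, and the brightest detected probe stood for the gene.

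The samples came from CD-1 mouse pups of both sexes, gavaged once at 11 days of age, from which epithelium of the last 4 cm of ileum was cut out by laser capture, 24 sections per animal. The groups were Lactobacillus reuteri DSM 17938 at 4 h, L. reuteri ATCC PTA 6475 at 4 h, PBS vehicle at 4 h, and the same 3 treatments at 24 h, when the pups were 12 days old. All pups were specific pathogen-free, and each of the 6 groups held 3 pups with 1 array per pup, 18 arrays in all. PBS and both L. reuteri strains were given in the same volume, the bacteria at 1e+08 colony-forming units, and the 24 h groups differ from the 4 h groups in age as well as in time after gavage, which cannot be told apart.

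A ribosome consists of a large and a small subunit, each built from ribosomal RNA and a fixed set of proteins that are normally made in matching amounts. In mammals the mRNAs of these proteins begin with a run of C and T (U) bases, the 5′ terminal oligopyrimidine (TOP) tract, through which the mTOR pathway and the RNA-binding protein Larp1 control their translation. The ileal epithelium is renewed continuously from crypt cells, whose division demands many ribosomes.

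The TOP tract is part of the first bases transcribed, so the start of the gene is shown for a few genes on which the results below turn. RefSeq promoter windows on mouse build GRCm38.p6 were found for 49 of the 58 genes. A run of 6 or more C or T bases on the sense strand, covering any base from 5 before to 5 after an annotated start of the gene, was present in 24 of the 49 (49.0%), against 6227 of 27025 genes of all kinds (23.0%). A gene with several annotated starts, as 9 of the 49 have, counted when any of them had the run, and 23 of the 49 had it at the start listed first. The strand opposite was not searched, because the tract lies in the mRNA. Each line gives 20 bases before and 20 bases after the start, 5′ to 3′, with the run in capitals. Rpl7a (chr2:26910787-26910826, plus strand), Rpl35 (chr2:39005112-39005151, minus strand) and Rpl14 (chr9:120571497-120571536, plus strand) had the run and were among the genes with lower signals after ATCC PTA 6475 at 24 h.
Rpl7a: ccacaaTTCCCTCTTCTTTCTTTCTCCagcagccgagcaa
Rpl35: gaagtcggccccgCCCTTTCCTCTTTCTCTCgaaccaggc
Rpl14: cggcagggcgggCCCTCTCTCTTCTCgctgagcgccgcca
Rps15a (chr7:118116128-118116167, minus strand) and Rpl27a (chr7:109519175-109519214, plus strand) had it and were among the genes with higher signals in the same comparison.
Rps15a: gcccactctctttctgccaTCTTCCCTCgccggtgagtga
Rpl27a: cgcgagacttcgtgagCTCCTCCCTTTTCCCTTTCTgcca
Rps15 (chr10:80292411-80292450, plus strand), with lower signals, and Rpl23 (chr11:97782420-97782459, minus strand), with higher signals, had no such run within 5 bases of the start. The Rps15 line holds a C and T run farther before the start, which the rule did not count.
Rps15: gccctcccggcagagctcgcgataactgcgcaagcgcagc
Rpl23: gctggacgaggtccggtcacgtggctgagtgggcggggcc
The run was therefore seen on both sides of the comparison and was missing on both sides. The sides are those of the brightest probe of each gene. The groups overlapped for Rps15a, the other detected probes of Rpl27a had lower signals, and those of Rpl23 went both ways. A match of letters is a description of these windows, which depend on where RefSeq places the start.

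The arrays themselves differed in brightness. The mean bead signal per array lay between 210.3 and 459.7, with the lowest value in the second ATCC PTA 6475 pup at 24 h, and 20284 to 22848 probes were detected per array. The number of arrays limits the precision of each value. Of 15 enterocyte genes, 12 passed the detection rule, and the fatty acid binding genes Fabp1 and Fabp2 and the bile acid transporter gene Slc10a2 did not. Vil1 and Apoa4 were detected on all 18 arrays, with median log2 signals of 11.09 and 13.82. Genes of other cell types were detected on all 18 arrays as well, among them the smooth muscle actin gene Acta2 (median 15.01), the collagen gene Col1a1 (11.93) and the T cell gene Cd3e (6.04). Their transcripts were thus measured in material labelled as epithelium. In such samples, fewer cells of a type and less RNA per cell cannot be told apart.

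Nearly all ribosomal protein genes gave strong signals in every pup. Of the 58 genes, 55 were detected on all 18 arrays. The exceptions were Rpl3l (17 arrays), the paralog of Rpl3 known from striated muscle, Rpl14 (8 arrays) and Rpsa (3 arrays), which also encodes the precursor of a laminin receptor. The 4 annotated genes that failed the detection rule were Rpl17, Rpl39l and Rps23, detected on 0 arrays, and Rpl6, detected on 1 array. Their bead signals lay between 41.7 and 76.5. Probe signals are not comparable between genes, and these values do not say that the mRNA is rare. Rpl14 passed the detection rule with all 3 PBS pups at 24 h and some pups of other groups, and Rpsa with 1 pup in each of 3 groups.

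The median log2 signal of the 58 genes was calculated for each pup. At 4 h it was 12.88, 13.08 and 12.83 after DSM 17938, 12.81, 12.94 and 12.72 after ATCC PTA 6475, and 12.96, 13.03 and 12.86 after PBS. At 24 h it was 12.81, 12.96 and 12.84 after DSM 17938, 12.83, 12.75 and 12.36 after ATCC PTA 6475, and 13.02, 13.14 and 12.82 after PBS. The third ATCC PTA 6475 pup at 24 h was the lowest of the 18, and the other 17 pups lay within 12.72 and 13.14. At 24 h the ATCC PTA 6475 group averaged 12.65 ± 0.25 and the PBS group 12.99 ± 0.16 (SD, n = 3 each), and 1 PBS pup lay below the highest ATCC PTA 6475 pup, so the groups overlapped. The same 58 probes took 3.51% ± 0.376 of all bead signal after ATCC PTA 6475 and 3.66% ± 0.170 after PBS at 24 h. Within every one of the 6 groups the pup numbered 2 had the highest share of bead signal, and in 5 of the 6 the pup numbered 3 had the lowest. The labels do not say what a replicate number stands for.

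**Figure D1:**
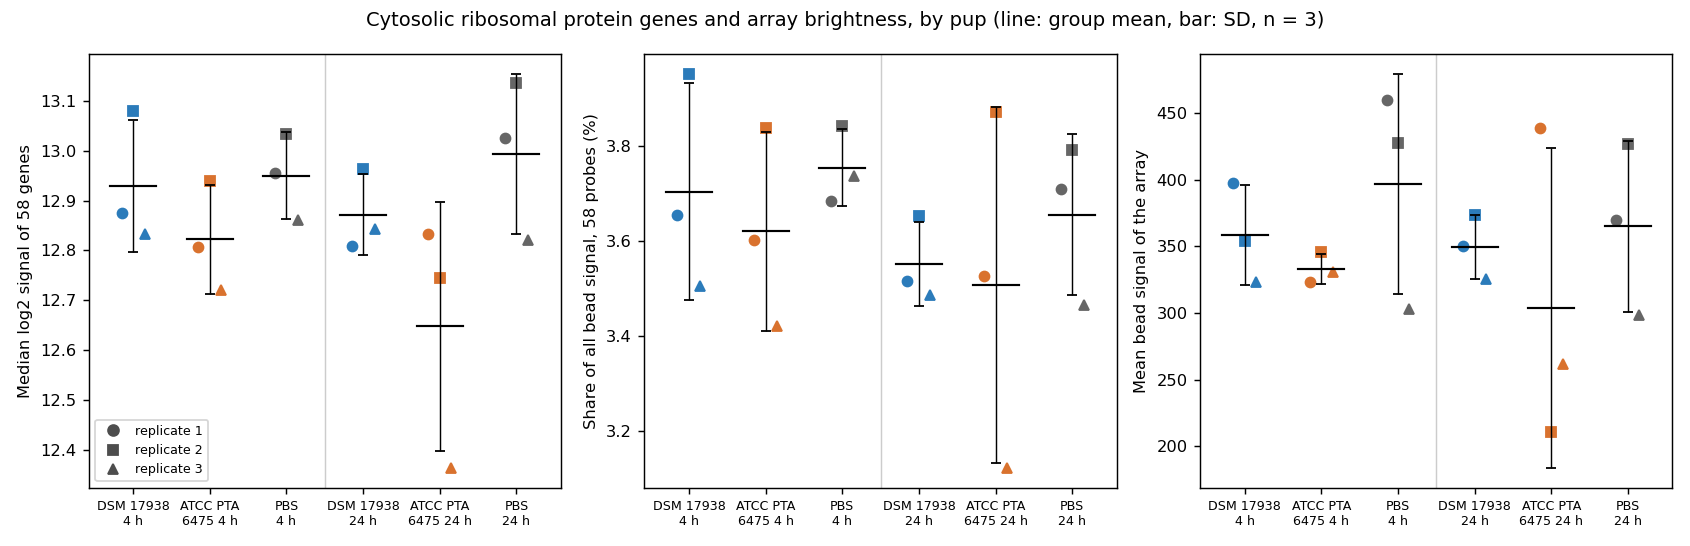
Each point is 1 pup, with circles, squares and triangles for replicates 1, 2 and 3; the black line and bar are the group mean and SD (n = 3). The left panel shows the median log2 signal of the 58 ribosomal protein genes, the middle panel their share of all bead signal in percent, and the right panel the mean bead signal of the array. The third ATCC PTA 6475 pup at 24 h has the lowest median, 12.36, and the second has the lowest mean bead signal, 210.3.

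Differences between groups were tested with limma on log2 signals across all 16835 features, with Benjamini-Hochberg adjustment in each comparison. In all 11 comparisons 0 of the 58 genes passed an adjusted p under 0.05, and 0 of the 16835 features did (0%). The counts below therefore use an unadjusted p under 0.05, as a description beside the share of all features that met it, and the words higher and lower refer to the fitted means. The smallest adjusted p of any ribosomal protein gene was 0.134, for Rpl7a after ATCC PTA 6475 against PBS at 24 h. This fit left out the replicate number, which the labels do not explain. With that number as a block in limma, 246 features passed in this comparison, Rpl7a among them (adjusted p = 0.0203). An exact permutation test of 3 pups against 3 cannot go below p = 0.1 (two-sided).

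**Figure D2:**
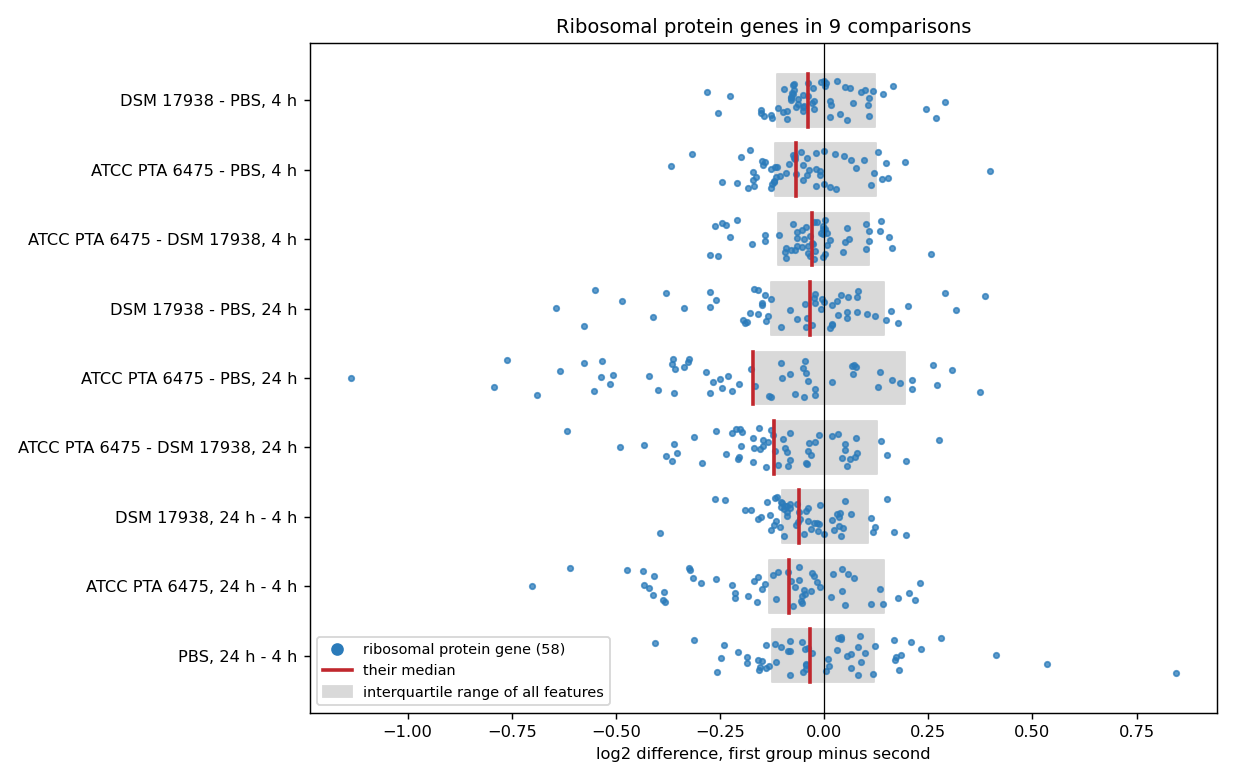
Each blue point is 1 of the 58 ribosomal protein genes in 1 of 9 comparisons, the red line is their median, and the grey box spans the interquartile range of all 16835 features. The x axis is the log2 difference, first group minus second. The median of the 58 genes is farthest from 0 for ATCC PTA 6475 against PBS at 24 h (-0.17), and the points spread most there.

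At 4 h, the ribosomal protein genes of DSM 17938 pups lay on both sides of those of PBS pups. The median log2 difference of the 58 genes was -0.04, beside 0.006 over all features, and 22 genes lay above 0 and 36 below. Single genes ranged from -0.28 to 0.29. None of the 58 reached an unadjusted p under 0.05, a mark that 3.34% of all features reached. The smallest p on the low side was that of Rps16, a small-subunit protein, which had 12.01, 12.15 and 12.14 after DSM 17938 against 12.10, 12.67 and 12.37 after PBS (difference -0.28, SE 0.20). On the high side it was that of Rpl14 (difference 0.27, SE 0.22), whose probe was detected in 2 of 3 DSM 17938 pups and in none of the PBS pups, at least 1.03-fold higher. For a probe not detected in a group, the fold is taken against the lowest signal among detected probes. Rpl29 (-0.15) and Rpl24 (-0.25) on the low side, and Rps27l (0.17) and Rps14 (0.14) on the high side, had differences close to their SE. Of 12 enterocyte genes tested, 1 was higher and 2 lower at an unadjusted p under 0.05, against 280 and 282 of 16835 features. The smallest p were those of the lactase gene Lct (-1.31) and Apoa1 (-0.48). No gene passed after adjustment, and the part of these cells in the result was not tested.

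At 4 h, most ribosomal protein genes lay slightly below PBS in ATCC PTA 6475 pups. The median difference was -0.07, beside 0.001 over all features, with 16 genes above 0 and 42 below. Single genes ranged from -0.37 to 0.40, and none of the 58 reached an unadjusted p under 0.05, against 3.33% of all features; 1 gene did without the second pup of either group. The P-stalk gene Rplp2, whose protein helps to recruit elongation factors, had 9.59, 9.49 and 9.18 after ATCC PTA 6475 against 10.04, 9.75 and 9.57 after PBS (difference -0.37, SE 0.22). Rpl28 had 13.95, 13.88 and 13.77 against 14.05, 14.06 and 14.00 in PBS pups (difference -0.17, SE 0.12), and Rpl12 differed by -0.18 (SE 0.12). These last 2 genes did not overlap between the groups, although the differences were small. On the low side 4 of 58 genes did not overlap, against 696 of 16835 features. On the high side were Rpl3l (0.40, SE 0.29), Rps14 (0.15, SE 0.13) and Rpl3 (0.14, SE 0.12), whose protein lies next to the peptidyl transferase centre. Rps14 and Rpl3 lay below 0, at -0.07 each, when arrays were scaled to a common median, a scaling that moved the median of all features to -0.11 and that of the 58 genes to -0.24. Genes of other cell types differed in the same comparison. Of the 11 leukocyte genes tested, 4 were higher at an unadjusted p under 0.05, against 1.76% of all features, and 0 were lower, against 1.57%, with a median difference of 0.74. No gene passed after adjustment. The 2 with the smallest p were the integrin gene Itgae (0.74) and the T cell gene Cd3d (0.99). The mean level of the leukocyte list ranged from 6.14 to 7.12 in ATCC PTA 6475 pups against 6.08 to 6.41 in PBS pups. Of 13 fibroblast and smooth muscle genes, 12 lay above 0 with a median of 0.23, among them Col1a2 (0.48) and Pdgfra (0.25), and their mean level ranged from 10.78 to 11.19 against 10.16 to 11.11. The part of these cells in the ribosomal protein values was not tested.

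The 2 strains were also compared with each other at 4 h. The median difference, ATCC PTA 6475 minus DSM 17938, was -0.03, with 19 genes above 0 and 39 below, and none of the 58 reached an unadjusted p under 0.05, against 3.38% of all features. Leaving out the first or the second ATCC PTA 6475 pup or the third DSM 17938 pup gave 1 such gene. Rplp0, the protein that anchors the P-stalk, had 8.63, 8.76 and 8.64 after ATCC PTA 6475 against 8.92, 8.82 and 8.96 after DSM 17938 (difference -0.23, SE 0.13). Rps27l, a paralog of Rps27 known as a target of p53, had 12.54, 12.70 and 12.76 against 12.80, 13.06 and 12.85 in DSM 17938 pups (difference -0.24, SE 0.15). Neither gene overlapped between the strains. Of the 58 genes, 5 did not overlap with ATCC PTA 6475 lower, against 667 of 16835 features. Rpsa differed by -0.21 but was not detected in any ATCC PTA 6475 pup and in 1 DSM 17938 pup, so no fold is given. The genes with the smallest p on the high side were Rpl22 (0.26), Rpl3 (0.16) and Rpl9 (0.16). Of the 11 leukocyte genes, 5 were higher at an unadjusted p under 0.05, against 1.94% of all features, and 1 was lower, against 1.44%, with a median of 0.27. Cd3d (1.27) and the B cell gene Cd79b (1.95) had the smallest p. The mean level of the leukocyte list ranged from 6.14 to 7.12 in ATCC PTA 6475 pups against 6.11 to 6.25 in DSM 17938 pups. Of the 13 fibroblast and smooth muscle genes, 12 lay above 0 with a median of 0.20, among them Myh11 (0.47) and Des (0.51), and their mean level ranged from 10.78 to 11.19 against 10.54 to 10.88. Of the 12 enterocyte genes, 2 were higher and 2 lower at an unadjusted p under 0.05, against 1.94% and 1.44% of all features. Among them were the lactase gene Lct (0.98), which was lower in DSM 17938 pups than in PBS pups at 4 h, and Krt18 (-0.55). The part of these cells in the result was not tested.

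At 24 h, Rps15 and Rpl14 were the ribosomal protein genes with the smallest p between DSM 17938 pups and PBS pups. Lower signals at an unadjusted p under 0.05 were seen for Rps15 and Rpl14, 2 of 58 genes, against 2.42% of all features, and higher signals for 0 of 58, against 2.55%. The median difference was -0.03, beside 0.008 over all features, with 22 genes above 0 and 36 below and a range from -0.65 to 0.39. Rps15, a protein of the head of the small subunit, had 12.91, 12.90 and 12.77 after DSM 17938 against 13.30, 13.38 and 13.35 after PBS (difference -0.49, SE 0.20, adjusted p = 0.911 in limma), 1.40-fold lower. All 3 DSM 17938 pups lay below all 3 PBS pups. That held for 3 of 58 genes, against 738 of 16835 features. Rpl14 had 4.41, 4.65 and 5.32 against 5.18, 5.87 and 5.05 in PBS pups (difference -0.58, SE 0.22), and the groups overlapped. Its probe was detected in 1 of 3 DSM 17938 pups and all 3 PBS pups. With only genes detected on all 18 arrays, 1 gene was lower.

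Rpl7a, a large-subunit protein, had 8.44, 9.76 and 9.22 after DSM 17938 against 9.64, 10.24 and 9.48 after PBS (difference -0.65, SE 0.31). The DSM 17938 pups were more scattered than the PBS pups, and the groups overlapped. Rps25, a small-subunit protein needed for initiation at some viral internal entry sites, had 12.61, 12.13 and 12.13 against 12.04, 11.57 and 12.10 in PBS pups (difference 0.39, SE 0.21). Rplp0 (0.20, SE 0.13) and Rpl23 (0.18, SE 0.14) followed on the high side. The count of genes with lower signals depended on single pups: it was 7 of 58 without the second DSM 17938 pup, 1 without the first or the third, and 0 without the second PBS pup.

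At 24 h, ATCC PTA 6475 pups had lower signals than PBS pups for most ribosomal protein genes. The median log2 difference of the 58 genes was -0.17, beside 0.02 over all features, with 15 genes above 0 and 43 below and a range from -1.14 to 0.37. Lower signals at an unadjusted p under 0.05 were seen for 16 of 58 genes, against 7.48% of all features, and higher signals for 1 of 58, Rpl23, against 7.59%. Rpl14 and Rpsa are among the 16, and their probes were not detected in most or all ATCC PTA 6475 pups. With only genes detected on all 18 arrays, 14 were lower. The 2 groups did not overlap, with ATCC PTA 6475 lower, for 16 of 58 genes, against 10.6% of all features, and with ATCC PTA 6475 higher for 4 of 58, against 10.8%. None of these genes passed after adjustment over all features.

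**Figure D3:**
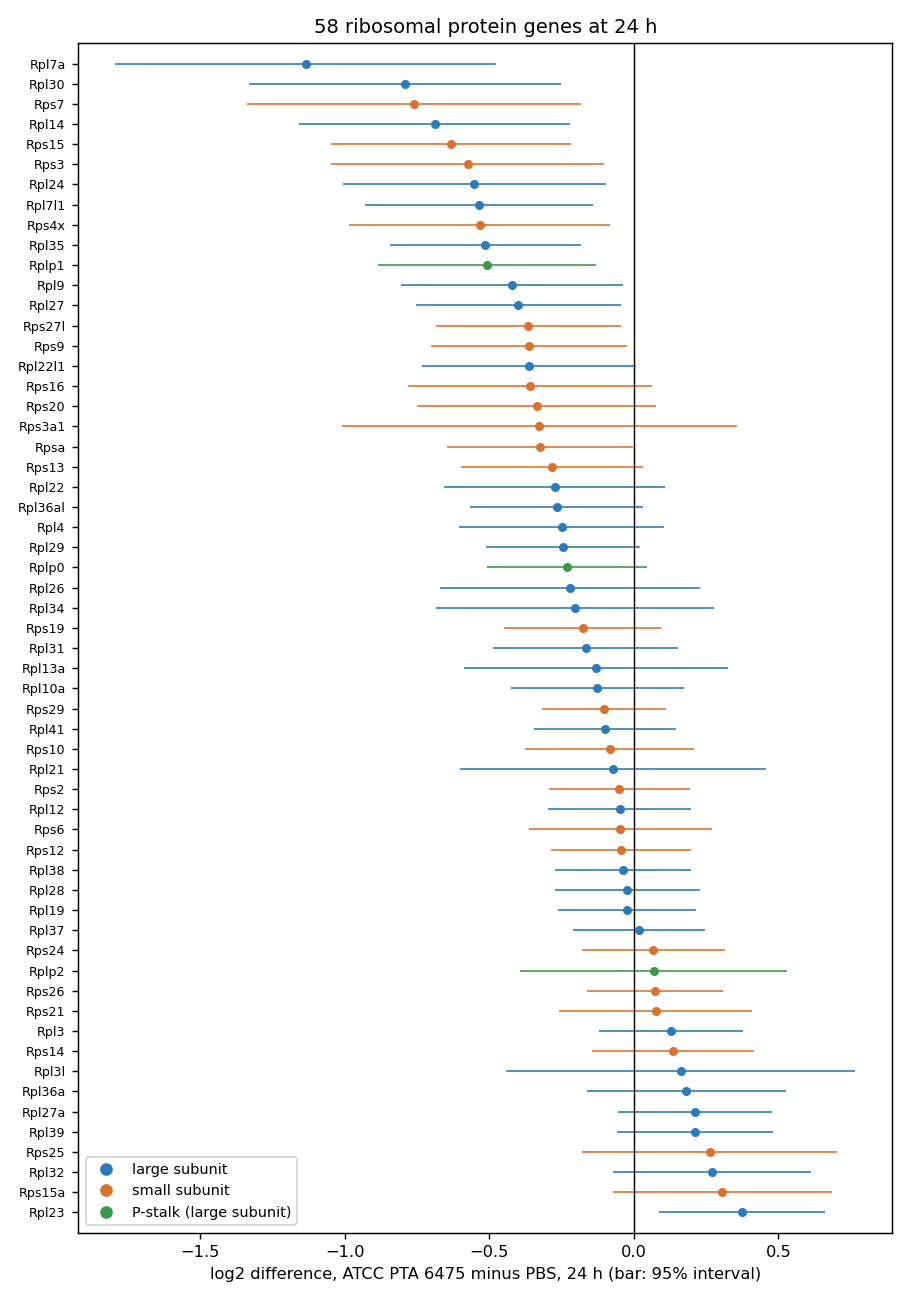
Each row is 1 of the 58 ribosomal protein genes; the point is the log2 difference, ATCC PTA 6475 minus PBS at 24 h, the bar is its 95% interval from limma, and the colour marks the subunit. The differences run from -1.14 for Rpl7a to 0.37 for Rpl23, with 43 points below 0 and genes of both subunits at either end.

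Genes of both subunits lay mostly below 0 in this comparison. The 32 large-subunit genes had a median difference of -0.15, with 24 below 0, and the 23 small-subunit genes had a median of -0.18, with 17 below 0. Among large-subunit genes, Rpl7a had 8.41, 9.22 and 8.31 after ATCC PTA 6475 against 9.64, 10.24 and 9.48 after PBS. Every ATCC PTA 6475 pup lay below every PBS pup, and the difference of -1.14 (SE 0.31, adjusted p = 0.134 in limma) corresponds to 2.20-fold lower signal. Rpl35, a protein at the exit of the nascent-chain tunnel, had 13.58, 13.24 and 12.84 against 13.71, 13.79 and 13.71 in PBS pups (difference -0.51, SE 0.16, adjusted p = 0.158). The PBS pups were nearly equal for Rpl35, and the spread lay among the ATCC PTA 6475 pups. Rpl30 had 9.38, 9.37 and 8.72 against 9.77, 10.34 and 9.74 in PBS pups (difference -0.79, SE 0.25), again with no overlap. A second detected probe of Rpl30 differed by -0.63. Rpl14 (-0.69), detected in 1 of 3 ATCC PTA 6475 pups and all 3 PBS pups, Rpl24 (-0.55), Rpl9 (-0.42) and Rpl27 (-0.40) also reached an unadjusted p under 0.05. Rpl9, Rpl14, Rpl24 and Rpl27 are named here because of these values.

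Among small-subunit genes, Rps15 had 12.82, 12.54 and 12.77 after ATCC PTA 6475 against 13.30, 13.38 and 13.35 after PBS. The difference was -0.63 (SE 0.20, adjusted p = 0.163 in limma), or 1.55-fold lower, with a wide gap between the groups and little spread within either. The PBS pups are the same ones as in the DSM 17938 comparison above, so the low Rps15 values after both strains share their controls. Rps7, which can bind the p53 regulator Mdm2, had 12.23, 11.87 and 11.22 against 12.59, 12.75 and 12.26 in PBS pups (difference -0.76, SE 0.27). The third ATCC PTA 6475 pup was lowest for Rps7, as it was for Rpl35 and Rpl30. Rps3 (-0.58), at the mRNA entry channel, Rps4x (-0.53) and Rps9 (-0.36) also reached an unadjusted p under 0.05. A second probe of Rps3 differed by -1.07, and a second probe of Rps9, detected on 18 arrays, by -0.02. Rps7, Rps3, Rps4x and Rps9 were chosen for mention after their values were seen. Rpsa (-0.32) also reached an unadjusted p under 0.05. Its probe was detected in no ATCC PTA 6475 pup and in 1 PBS pup, so no fold is given.

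By their brightest probes, the P-stalk genes did not all go the same way after ATCC PTA 6475. Rplp1 had 14.00, 13.59 and 13.24 against 14.06, 14.39 and 13.92 in PBS pups (difference -0.51, SE 0.18), and 1 ATCC PTA 6475 pup lay above the lowest PBS pup. Rplp0 had 8.54, 8.60 and 8.46 against 8.61, 8.95 and 8.73 (difference -0.23, SE 0.13), with no overlap. Rplp2 had 9.72, 9.91 and 9.31 against 9.70, 9.81 and 9.22 (difference 0.07), so its groups overlapped almost fully. Dimmer probes of Rplp2 and Rplp0, detected on 5 and 9 arrays, differed by -0.08 and -0.45. Of the paralogs, Rpl7l1 had 8.61, 8.78 and 8.75 against 9.10, 9.48 and 9.18 (difference -0.54, SE 0.19), and Rps27l had 12.75, 12.69 and 12.30 against 12.96, 12.99 and 12.88 (difference -0.36, SE 0.15). A second Rpl7l1 probe, detected on 9 arrays, differed by 0.03. Rpl22l1 (-0.36, SE 0.17), Rpl36al (-0.27, SE 0.14) and Rpl3l (0.16) did not reach an unadjusted p under 0.05.

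A smaller set of ribosomal protein genes had higher signals after ATCC PTA 6475. Rpl23, a large-subunit protein that can bind Mdm2, had 15.09, 14.99 and 15.01 after ATCC PTA 6475 against 14.70, 14.50 and 14.77 after PBS. The difference was 0.37 (SE 0.14, adjusted p = 0.217 in limma), or 1.30-fold higher, and the groups did not overlap. The 3 other detected probes of Rpl23 differed by 0.21, 0.17 and -0.36. Rps15a had 8.05, 8.35 and 8.72 against 7.81, 8.04 and 8.34 in PBS pups (difference 0.31, SE 0.18), with overlap. Rpl32 had 13.60, 13.92 and 13.79 against 13.57, 13.51 and 13.41 (difference 0.27, SE 0.16), and it lay at -0.05 when arrays were scaled to a common median. The other genes without overlap on this side were Rpl27a (0.21) and Rps26 (0.08), named after their values were seen. The 3 other probes of Rpl27a lay below 0, between -0.36 and -0.04.

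**Figure D4:**
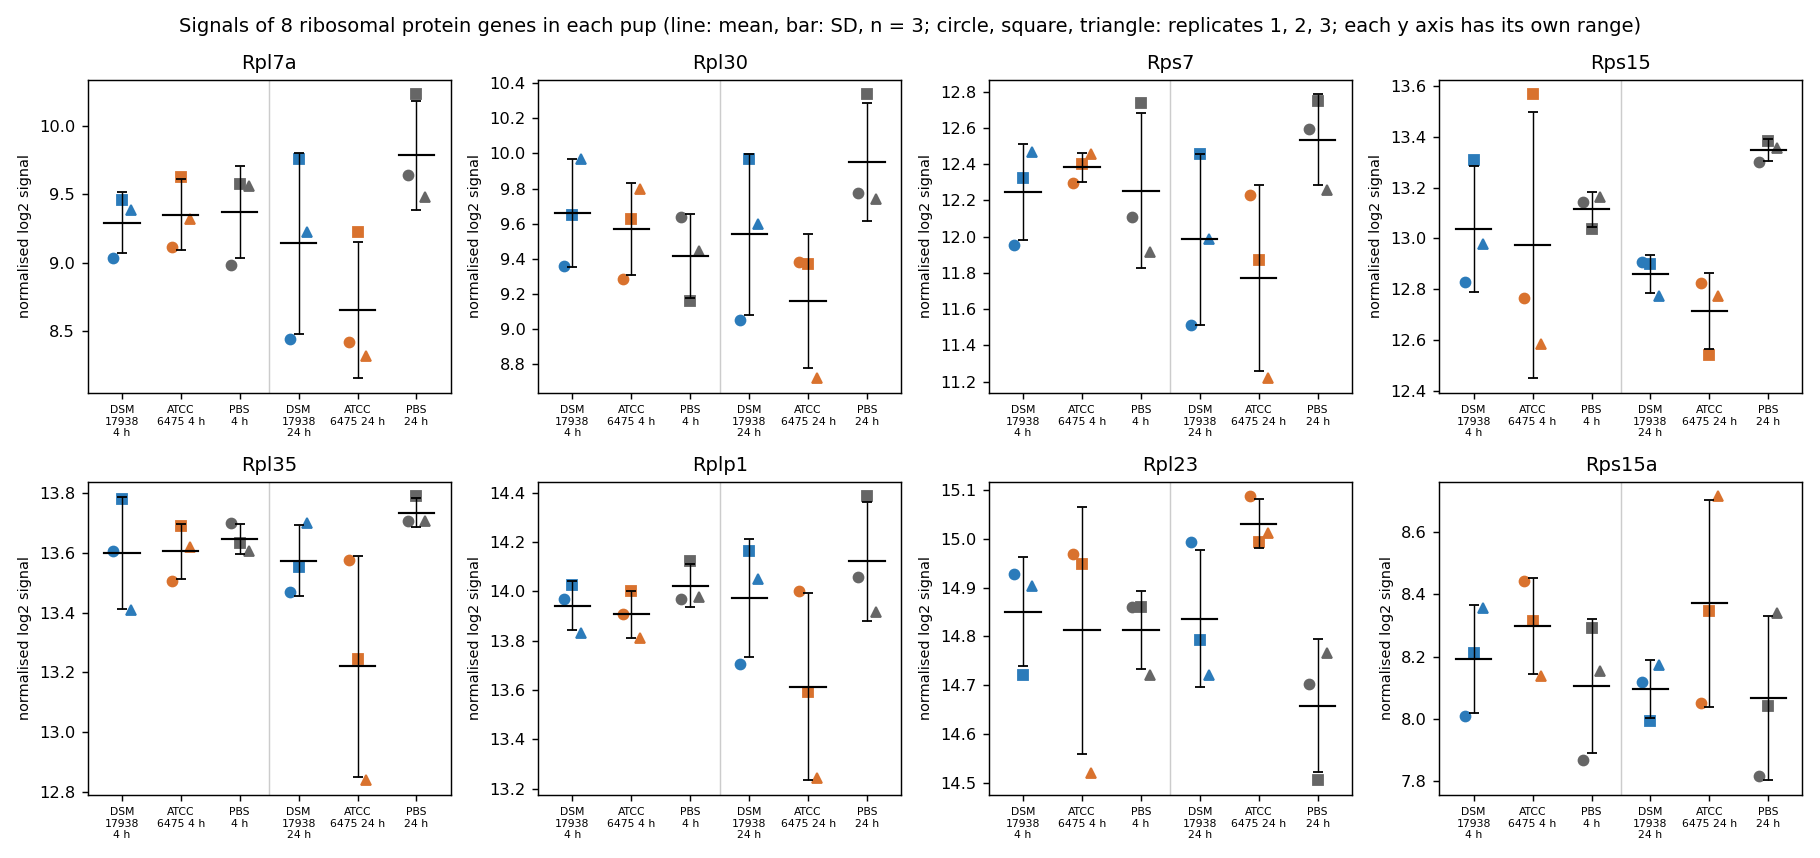
Each panel is 1 gene and each point 1 pup, on the normalised log2 scale with its own y range; line and bar are the group mean and SD (n = 3). Rpl7a, Rpl30, Rps7, Rps15, Rpl35 and Rplp1 have lower means in ATCC PTA 6475 pups than in PBS pups at 24 h, and Rpl23 and Rps15a have higher means.

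Other probes of the same genes gave a partial check. For 18 of the 58 genes another probe was detected, 25 probes in all, and 18 of the 25 had the same sign as the brightest probe in ATCC PTA 6475 against PBS at 24 h. Most of the 25 lay below 0, and most matches came from genes below 0 by their brightest probe. For genes above 0 by it, most other probes lay below 0. Those of Rpl27a and Rplp2 (-0.08) did, and those of Rpl23 (0.21, 0.17 and -0.36) and Rps24 (0.37 and -0.28) went both ways. For Rps2 the probes differed in size: the brightest probe differed by -0.05 and the other by -0.93. Rps13 (-0.28 and -0.53) had the same sign on both probes. Rps2 and Rps13 were picked as examples with the values in view.

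The size of the shift varied with the brightness of the probe. The 58 genes were ranked by their mean log2 signal over the 18 arrays and divided into a dim, a middle and a bright set. The 20 dim genes, under 12.15, had a median difference of -0.26, and the 19 middle genes had a median of -0.27. The 19 bright genes, above 13.56, had a median of -0.04, with 8 of them above 0.

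The shift in ATCC PTA 6475 pups moved with single arrays and with array brightness. Without the third ATCC PTA 6475 pup at 24 h the median difference of the 58 genes was -0.05, with 7 genes lower at an unadjusted p under 0.05. Without the second PBS pup at 24 h it was -0.11, with 4 genes lower and 0 higher, and without the first ATCC PTA 6475 pup it was -0.26, with 24 lower. The mean bead signals were 439.2, 210.3 and 261.5 in ATCC PTA 6475 pups against 369.7, 427.1 and 298.7 in PBS pups. With log2 mean bead signal as a covariate, a term added after seeing the data, the median was -0.07 and 7 genes were lower. Scaling to a common median gave -0.46, beside -0.16 over all features. The direction of the median was below 0 in each of these, and its size was not stable.

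Genes that work beside ribosomal proteins were examined in the same comparison, in which 7.59% of all features were higher and 7.48% lower at an unadjusted p under 0.05. These shares stand beside every count of higher and lower genes in this and the next 2 paragraphs. Of 17 other TOP mRNAs tested, mainly translation factors, 14 lay below 0 and 5 were lower at an unadjusted p under 0.05, with a median of -0.28. Among them were Eef2, which moves the ribosome along the mRNA (difference -1.16, SE 0.34, adjusted p = 0.144 in limma), and Eif3l, an initiation factor subunit (-0.51, SE 0.17). The 70 detected mitochondrial ribosomal protein genes, whose products make up the separate ribosome of mitochondria, had a median of -0.26, with 63 below 0 and 22 lower. The median of the 58 cytosolic genes thus lay closer to 0 than that of the mitochondrial set. No shift particular to cytosolic ribosomal proteins was shown, and the difference between the sets was not tested.

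Ribosome assembly genes and their regulators lay on both sides of 0. Of 38 biogenesis genes, 23 lay below 0 and the median was -0.03, with 1 higher and 4 lower at an unadjusted p under 0.05. Nmd3, the export adaptor of the large subunit, differed by 0.63 (SE 0.15), and Nhp2, a protein of the small nucleolar RNPs that guide pseudouridylation, by -1.27 (SE 0.31). Of 12 regulators, 7 lay below 0 with a median of -0.07, and 2 were higher and 1 lower. The 2 with the smallest p were Tsc1, an inhibitor of mTOR signalling (0.59, SE 0.18), and Mdm2 (0.42, SE 0.17).

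Marker lists of the cell types in the samples gave the following values in the same comparison. Enterocyte genes had a median of -0.09, with 8 of the 12 tested below 0 and none at an unadjusted p under 0.05 in either direction. The 2 with the smallest p were Epcam (-0.34, SE 0.22) and Krt20 (-0.53, SE 0.34). Their mean level per array ranged from 11.20 to 11.38 in ATCC PTA 6475 pups against 11.18 to 11.62 in PBS pups. Crypt and proliferation genes had a median of -0.16, with 2 higher and 2 lower of 12, including the replication gene Mcm3 (-0.80) and the stem cell factor Sox9 (0.50). Their mean level ranged from 8.51 to 8.94 in ATCC PTA 6475 pups against 8.71 to 8.96 in PBS pups. Fibroblast and smooth muscle genes had a median of 0.15, with 9 of 13 above 0, and a mean level from 10.74 to 11.03 in ATCC PTA 6475 pups against 10.69 to 10.78 in PBS pups. Pdgfra (0.41, SE 0.14) was the 1 gene of this list at an unadjusted p under 0.05, and Vim differed by -0.59 (SE 0.29). Leukocyte genes had a median of -0.09 over the 11 of 16 that were tested, the pan-leukocyte gene Ptprc not among them, and a mean level from 6.26 to 6.65 against 6.07 to 6.83 in PBS pups. The 2 with the smallest p were Cd14 (-0.47) and Itgae (0.29). The 4 of 10 neural genes tested had a median of 0.05, with Sox10 at 0.17 and Elavl4 at 0.07, and a mean level from 7.37 to 7.72 against 7.44 to 7.68 in PBS pups. All 5 ranges overlapped between the groups, and the part of cell composition in the result was not tested.

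At 24 h, most ribosomal protein genes had lower signals after ATCC PTA 6475 than after DSM 17938, by small amounts. The median difference, ATCC PTA 6475 minus DSM 17938, was -0.12, with 14 genes above 0 and 44 below. Lower signals at an unadjusted p under 0.05 were seen for 2 of 58 genes, against 1.85% of all features, and higher signals for 0, against 2.15%. Rplp0 had 8.54, 8.60 and 8.46 after ATCC PTA 6475 against 8.86, 8.80 and 9.23 after DSM 17938 (difference -0.43, SE 0.13, adjusted p = 1.00 in limma), with no overlap. At 4 h the same gene had shown the same order of the strains. At 24 h, 2 of 58 genes did not overlap on the low side, against 521 of 16835 features. Rpl35 differed by -0.35 (SE 0.16), with 13.47, 13.55 and 13.70 in DSM 17938 pups, and Rplp1 by -0.36 (SE 0.18). On the high side were Rps15a (0.28), Rpl23 (0.20) and Rps14 (0.14). The count of lower genes was 12 without the first DSM 17938 pup and 1 without the second or the third DSM 17938 pup. It was 9 without the first ATCC PTA 6475 pup and 1 without the third. The median was -0.02 without the third ATCC PTA 6475 pup, -0.20 without the first and -0.08 without the second DSM 17938 pup, and it was -0.06 with the brightness covariate.

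Over time, the ribosomal protein genes of PBS pups were divided evenly between higher and lower signals. The median difference, 24 h minus 4 h, was -0.03, with 28 genes above 0 and 30 below. Higher signals at an unadjusted p under 0.05 were seen for 1 of 58 genes, against 1.89% of all features, and lower signals for 0, against 1.92%. The gene was Rpl14, which had 5.18, 5.87 and 5.05 at 24 h against 4.49, 4.49 and 4.60 at 4 h, where it was not detected in any pup, and was at least 1.54-fold higher (adjusted p = 0.999 in limma). Rpl30 had 9.77, 10.34 and 9.74 at 24 h against 9.64, 9.16 and 9.45 at 4 h (difference 0.54, SE 0.25), with no overlap. Rps27l (0.21) followed, and on the low side were Rps25 (-0.41), Rpl39 (-0.25), whose protein lines the exit tunnel, and Rps21 (-0.24). Without overlap, 5 of 58 genes were higher at 24 h, against 774 of 16835 features, and 6 were lower, against 784. Leaving out 1 array gave 1 or 2 genes higher and 0 or 1 lower, and medians from -0.04 to 0.02, the last without the third PBS pup at 24 h. All 11 leukocyte genes tested lay above 0, with a median of 0.33 and none at an unadjusted p under 0.05, and their mean level ranged from 6.07 to 6.83 at 24 h against 6.08 to 6.41 at 4 h. Among them Cd3e (0.52) and Cd3g (0.54) had the smallest p. Of the enterocyte genes, Krt20 differed by 0.91 (SE 0.34) and Fabp6, an ileal bile acid binding gene, by 2.17 (SE 0.99). The part of these cells in the result was not tested.

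Over time, none of the 58 genes reached an unadjusted p under 0.05 in DSM 17938 pups, a mark that 2.47% of all features reached; without the third pup at 4 h, 1 gene did. The median difference was -0.06, with 16 genes above 0 and 42 below. The genes with the smallest p were Rpl21 (-0.39, SE 0.25), Rps14 (-0.19) and Rps4x (-0.24) on the low side. On the high side were Rps6 (0.15), the substrate of the S6 kinases, Rpl29 (0.12) and Rpl22 (0.17). Rpl21 lay at 0.10 when the mean of its 3 detected probes replaced the brightest.

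ATCC PTA 6475 pups had lower signals at 24 h than at 4 h for 6 of 58 genes at an unadjusted p under 0.05, against 2.82% of all features, and higher signals for 0, against 3.1%. The median difference was -0.08, with 14 genes above 0 and 44 below. The 6 genes were Rpl35 (-0.38, SE 0.16), Rpl9 (-0.43, SE 0.18), Rpl7a (-0.70, SE 0.31), Rps7 (-0.61), Rps4x (-0.47) and Rpl22 (-0.38), each with an adjusted p of 0.830 in limma, and the last 3 were named after their values were seen. Rpl9 had 13.46, 13.27 and 12.98 at 24 h against 13.54, 13.54 and 13.93 at 4 h, with no overlap. On the low side 4 of 58 genes did not overlap, against 916 of 16835 features. On the high side were Rpl23 (0.22), Rpl27a (0.18) and Rpl32 (0.20). The median was -0.17 without the first ATCC PTA 6475 pup at 24 h and -0.04 without the third. The count of lower genes was 13 without the first ATCC PTA 6475 pup at 24 h, 0 without the third, 3 without the second, and 1 without the second or the third pup at 4 h or with the brightness covariate.

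The change of each strain's difference from PBS between 4 h and 24 h was tested directly. For DSM 17938 the median change was -0.01 and 1 of 58 genes, Rpl14, was lower at an unadjusted p under 0.05, against 1.14% of all features, and 0 were higher, against 1.07%. The Rpl14 probe was not detected in any PBS pup at 4 h, so the size of its change is not given. Leaving out 1 array gave 0 to 2 lower genes for this strain. For ATCC PTA 6475 the median change was -0.13 and 5 of 58 genes were lower, against 2.08% of all features, and 0 were higher, against 2.61%. These were Rpl30 (-0.95, SE 0.36), Rpl7a (-1.12, SE 0.44), Rps7 (-0.89, SE 0.39), Rpl35 (-0.47, SE 0.22) and Rpl14, again with no size given for want of a PBS signal at 4 h, each with an adjusted p of 1.00 in limma. No gene was thus shown to differ in its response between the 2 times. Without the second PBS pup at 24 h the ATCC PTA 6475 count was 0 and the median -0.05, and without the first ATCC PTA 6475 pup at 24 h the count was 9 and the median -0.21. Without the third ATCC PTA 6475 pup at 24 h the median was -0.05. The count was 1 without the third ATCC PTA 6475 pup at 24 h, the second at 4 h or the first PBS pup at 4 h, and 3 without the second ATCC PTA 6475 pup at 24 h, the first PBS pup at 24 h or the third at 4 h.

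Ribosomal protein genes varied together among pups of the same group only in part. After subtracting group means, the 1653 pairs of genes had a median correlation of 0.19 over the 18 arrays, from -0.91 to 0.93, and 34.1% of the pairs were negative. The mean over pairs was 0.15, beside 0.005 over all features. These correlations describe 18 arrays that share a chip type, a normalisation and the differences in brightness given above. Each gene was also set against the mean of the other 57. The correlation was above 0.5 for 30 genes, led by Rplp1 (0.96), Rps20 (0.89), Rps9 (0.87), Rpl26 (0.85) and Rps13 (0.85). It was below 0 for 13 genes, from Rpl38 (-0.66), Rps15a (-0.61), Rpl3 (-0.56), Rps14 (-0.53) and Rps25 (-0.43) to Rps6 (-0.04). Genes of both subunits were in either set.

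The genes that ran against the others within groups mostly lay above 0 in ATCC PTA 6475 pups against PBS pups at 24 h. The 13 genes with a correlation below 0 had a median difference from PBS of 0.14, and 10 of them lay above 0. The other 45 genes had a median of -0.27, and 40 of them lay below 0. Both sets were formed after the values were seen, from the same arrays, so no test is given. Most of the 13 genes also belong to the bright set described above, so this pattern overlaps with the one by probe brightness.

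**Figure D5:**
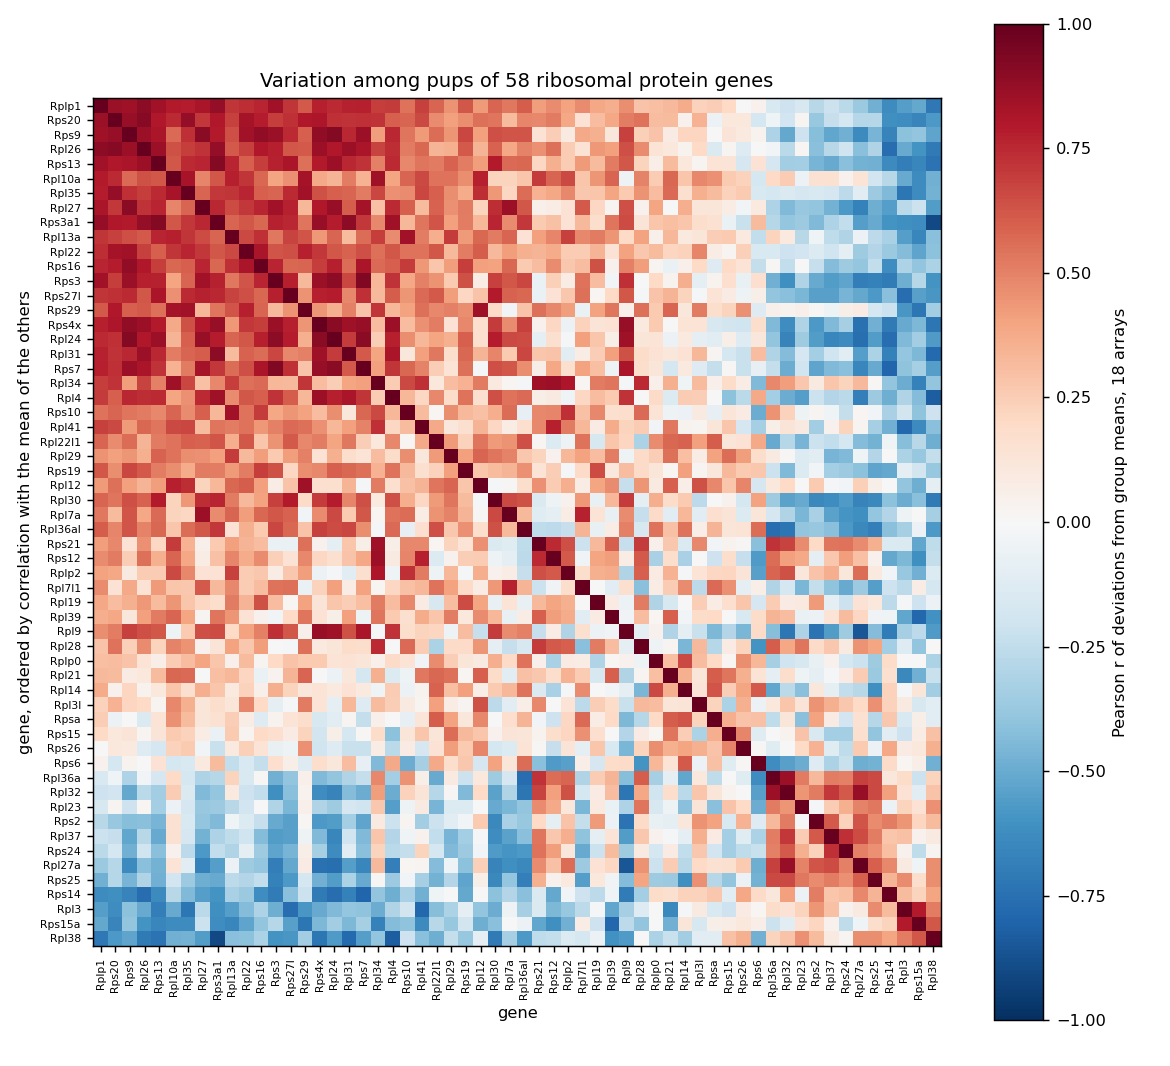
The matrix shows, for each pair of the 58 ribosomal protein genes, the Pearson correlation of their deviations from group means over 18 arrays, from -1 (blue) to 1 (red). Genes are ordered by their correlation with the mean of the others, from Rplp1 (0.96) to Rpl38 (-0.66). Many of the 13 genes at the end are blue against the first ones and red among themselves. Rps6, which is in this set, is blue against most of the rest of it.

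The spread among pups of a group differed between these genes. The pooled within-group SD had a median of 0.19 on the log2 scale, beside 0.23 over all features. It was largest for Rps3a1 (0.44), Rpl7a (0.42) and Rpl3l (0.39), and smallest for Rps29 (0.07), Rpl37 (0.08) and Rpl38 (0.09). Rps3a1 had 9.94, 9.08 and 8.39 after ATCC PTA 6475 at 24 h against 9.26, 9.96 and 9.17 after PBS, so pups of 1 group differed more than the group means. Rps29 had 14.93, 14.79 and 14.68 against 14.95, 14.90 and 14.86 in PBS pups, with 2 of the ATCC PTA 6475 pups below every PBS pup by small amounts.

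The genes outside the family whose signals were most like the mean of the 58 over the 18 arrays were Hint1 (r = 0.89), Trmt112 (0.89), Cux1 (0.89), the mitochondrial ribosomal protein gene Mrpl11 (0.89), Cops9 (0.88) and Ndufc2 (0.88). These values are descriptions over the same 18 arrays, with group differences included.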

How the data were processed

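Transcripts were measured on 18 single-colour Illumina mouse arrays, each from a different pup according to the labels, which also gave treatment, time and replicate number. The submitters' processing notes name GenomeStudio without a version. Per the file headers, the deposited bead signals are intensity values on a linear scale before any normalisation. A fraction deposited with each signal grows with it, and 1 minus that fraction served as the detection p. A deposited table of log2 values, within 0.00584 of the log2 of quantile-normalised signals, was used as an alternative.

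Signals were background-corrected and quantile-normalised with neqc (offset 16) in limma 3.58.1 under R 4.3.3. Of 45281 probes, 24506 had a detection p under 0.05 on at least 3 arrays. In the platform annotation 34885 probes had 1 symbol, 18 several and 10378 none. A single symbol was replaced by the RefSeq symbol of the same Entrez gene where RefSeq held that gene. The brightest probe per gene was kept, with unnamed probes separate, 16835 features in all. limma was fitted to 6 group means on 18 arrays (12 residual and 4.25 prior degrees of freedom), and the steps were tested on simulated data. Ribosomal protein genes have many processed pseudogenes and near-identical copies, and cross-hybridisation was not tested. Unless a test is named, single genes are given as log2 differences with the limma SE.

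The genes and the lists were chosen with earlier results of these data known. Named genes are, per comparison, the 3 higher and 3 lower genes with the smallest p, the genes with the 3 largest and 3 smallest SDs, detected paralogs, the P-stalk, the 6 most similar other genes, and 2 genes per other list; others are marked. A probe undetected in a whole group has only a bound there. Alternatives were the offset, median scaling, the deposited values, the detection filter, a replicate block, array weights, fits on the compared arrays alone, the mean of all probes, leaving out each array, and array brightness.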

Additional observations from a re-analysis of the deposited data

How the results depend on the processing

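Every count of genes past an adjusted p under 0.05 in limma was 0 in the 11 comparisons, and it was 0 when each array was left out (for example "without PBS 24 h replicate 2") and under the other settings, with 1 exception. With the replicate number as a block, 1 gene was called, Rpl7a for ATCC PTA 6475 against PBS at 24 h (-1.14, adjusted p = 0.0203), among 246 features in all. The numbers do not pair the pups by the labels: deviations of same-numbered arrays correlated from -0.05 upward, and 15 of 18 arrays correlated best with their own number, a hint from the data. Scaling to a common median gave ATCC PTA 6475 pups a median over the 58 genes of -0.24 (4 h, against PBS), -0.46 (24 h, against PBS), -0.34 (24 h, against DSM 17938) and -0.25 (24 h against 4 h), where the medians of all features were -0.11, -0.16, -0.17 and -0.12. Under that scaling Rpl3 (-0.0714) and Rps14 (-0.0661) at 4 h and Rpl32 (-0.0495) at 24 h changed sign for ATCC PTA 6475 against PBS, and with the mean of all detected probes Rpl21 did for DSM 17938 over time (0.10); the cause was not tested. Leaving out 1 array, the medians ranged at 24 h from -0.26 to -0.05 for ATCC PTA 6475 and from -0.10 to 0.004 for DSM 17938, both against PBS, and at 4 h from -0.09 to -0.04 and from -0.05 to 0.002 for the same strains. They ranged from -0.20 to -0.02 for ATCC PTA 6475 against DSM 17938 at 24 h and from -0.07 to -0.01 at 4 h, and over time from -0.17 to -0.04 (ATCC PTA 6475), -0.08 to -0.01 (DSM 17938) and -0.04 to 0.02 (PBS). The change of the difference from PBS ranged from -0.21 to -0.05 (ATCC PTA 6475) and -0.06 to 0.02 (DSM 17938). Of the other values under other settings, 109 counts, 106 medians and 530 single-gene differences kept their side of the threshold or moved by less than the SD between pups. That SD was 0.15, more than the size of most medians, so a median could vanish or change sign within it. The tally is therefore no measure of how stable the medians were. Groups of 3 arrays and a median SE of 0.16 for these genes limit what could be detected.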
